A study of Mus musculus with 12 samples.

Results

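Regional patterning of the forebrain was examined through 9 homeodomain transcription factor genes, *Emx1*, *Emx2*, *Pax6*, *Lhx2*, *Gsx1*, *Gsx2*, *Nkx2-1*, *Otx1* and *Otx2*, in neural stem/progenitor cells (NSPCs) with and without the m6A reader Ythdf2. The members were chosen by gene symbol and found as 9 of the 24525 genes in the count files, 4 of them marking the dorsal and 3 the ventral telencephalon, with the 2 *Otx* genes as a separate class. The libraries are the input RNA-seq libraries of an m6A-IP experiment, that is, fragmented mRNA kept aside before the antibody step, from 3 wild-type and 3 *Ythdf2*-/- samples. The m6A-IP libraries were not analysed here.

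Both groups were C57BL/6 neurospheres (floating NSPC cultures) made from forebrain at E14.5 and sequenced at passage 1, after growth with EGF at 20 ng/ml and bFGF at 10 ng/ml. The wild-type cells carried no targeted allele as far as the labels state. In *Ythdf2*-/- cells, LoxP sites around the 5′ UTR and exon 1 had been recombined through a cross with mice that express Cre in all tissues, so the loss was not limited to the forebrain. The study calls the libraries of a genotype biological replicates, and the labels do not tie them to single embryos.

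In the embryo, the telencephalon is divided along its dorsal to ventral axis by transcription factors that are each made in part of the neuroepithelium. *Pax6*, *Emx1*, *Emx2* and *Lhx2* are made in progenitors of the cortex, *Gsx1* and *Gsx2* in the ganglionic eminences, and *Nkx2-1* in the medial ganglionic eminence and hypothalamus, and Pax6 and Gsx2 are known to repress each other across the boundary between cortex and striatum. Otx1 and Otx2 act earlier and more widely, in the specification of forebrain and midbrain. All 9 bind DNA through a homeodomain, whose recognition helix lies in the major groove.

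The stretch that encodes this helix is printed first for 7 of the members, because it is the DNA-reading part that they share and in which they differ. Each line gives codons 47 to 56 of the homeobox, 30 bases on the coding strand in GRCm38.p6 (mm10), with codon 50 in capitals, the codon for the residue known to set which bases are preferred next to the TAAT core.
Emx1: gtgtggttcCAGaatcggaggacaaaatac
Emx2: gtatggtttCAGaaccggagaacgaaattc
Lhx2: gtctggtttCAGaatgcccgggccaagttc
Gsx1: atctggtttCAGaaccgccgggtgaagcac
Pax6: gtatggtttTCTaatcgaagggccaaatgg
Otx1: gtttggttcAAGaaccgccgcgccaagtgc
Otx2: gtatggtttAAGaatcgaagagctaagtgc
Codon 50 was the glutamine codon CAG in *Emx1*, *Emx2*, *Lhx2* and *Gsx1*, dorsal and ventral alike, the serine codon TCT in *Pax6* and the lysine codon AAG in both *Otx* genes. The dorsal and ventral classes follow the place of expression and not this codon.

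The depth was 11029827 to 13185778 counted reads per library, and 13112 genes passed the filter on low counts. *Ythdf2* had 840, 961 and 999 reads in the wild-type libraries and 137, 198 and 138 in the *Ythdf2*-/- libraries, replicates 1, 2 and 3 in order, as for all values given in threes below. Wild-type replicate 3 stood apart from the other 5 libraries, at 91.0 on a first principal component where the others lay between -30.6 and -6.04. It held the highest summed level of oligodendrocyte lineage markers (3379 CPM, the reads of a gene scaled to library size, against at most 659 elsewhere), of astrocyte markers (7758 against at most 3563) and of neuronal markers (2146 against at most 1513), and the part of these cells in the results below was not tested. Wild-type replicate 3 also held the lowest summed level of progenitor markers, 6012 CPM, against 8497 to 9481 in *Ythdf2*-/-. Reads on 4 Y-linked genes were present in wild-type replicates 1 and 2 and in *Ythdf2*-/- replicate 3 (1111 to 2147 reads) and absent from the other libraries (at most 1 read).

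The 9 factors did not stand at one level, and in bulk libraries fewer cells that express a factor and less of its RNA per cell cannot be told apart. Per length, as RPKM computed from the counts, *Otx2* (17.3), *Pax6* (16.8) and *Lhx2* (14.6) were highest, followed by *Emx2* (7.01), *Otx1* (3.30), *Gsx2* (0.743), *Gsx1* (0.662), *Nkx2-1* (0.122) and *Emx1* (0.0130), each as a mean over 6 libraries. The ranges of *Otx2*, *Pax6* and *Lhx2* overlapped, and *Otx2* exceeded *Pax6* in 3 of the 6 libraries, so no order can be given within this trio. *Emx2* lay below all 6 values of *Lhx2* and above all 6 of *Otx1*, which in turn lay above all values of *Gsx2*. *Gsx2* and *Gsx1* overlapped, as did *Nkx2-1* and *Emx1*. The members thus spanned the 80.5th percentile of all genes for *Otx2* and the 27.7th for *Emx1*.

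**Figure D1:**
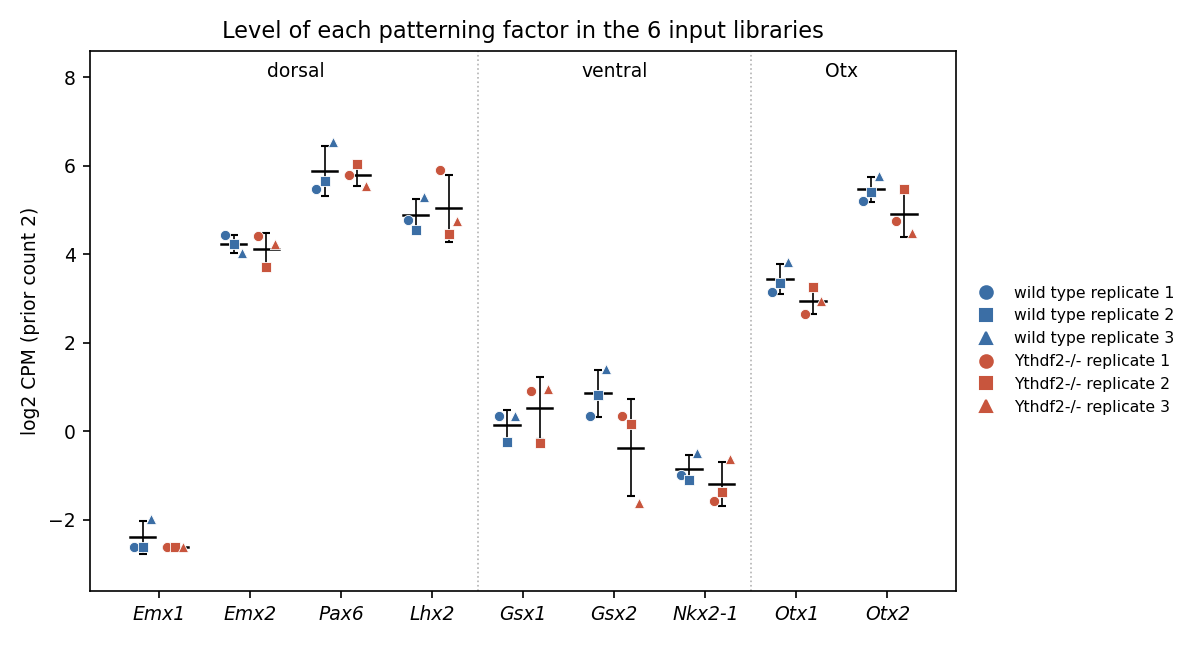
Log2 CPM (prior count 2) of the 9 patterning factors in each input library, wild type in blue and *Ythdf2*-/- in red, with the mean and SD of the 3 libraries of each genotype as bars. The dorsal genes other than *Emx1* lie far above the ventral genes in every library, and *Gsx2* is the member whose 3 wild-type libraries all lie above the 3 *Ythdf2*-/- libraries.

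Among the dorsal genes, *Pax6*, a paired-domain and homeodomain factor needed for cortical progenitors and the eye, lies on the plus strand of chromosome 2 from 105668896 to 105698410 with 12 exons. It had 521, 659 and 1012 reads in wild type and 648, 882 and 578 in *Ythdf2*-/-, or 62.5 ± 26.2 and 55.7 ± 9.41 CPM (SD, n = 3). The highest library was wild-type replicate 3 and the groups overlapped. The log2 fold change of *Ythdf2*-/- against wild type was -0.17 (SE 0.31, adjusted p = 0.999, edgeR), and it became 0.23 without wild-type replicate 3. *Pax6* shares 1091 exon bases with *Elp4*, an elongator subunit gene on the opposite strand that had 4619 reads in all, and since the strand setting of the counting is not given in the sources used here, reads in that stretch cannot be assigned with certainty.

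*Lhx2*, a LIM-homeodomain factor that selects cortical identity against that of the hem, lies on the plus strand of chromosome 2 from 38339271 to 38369737 with 5 exons. It had 320, 306 and 428 reads in wild type and 700, 297 and 331 in *Ythdf2*-/-, or 30.0 ± 8.22 and 36.1 ± 20.6 CPM (SD, n = 3). *Ythdf2*-/- replicate 1 was highest at 59.7 CPM, wild-type replicate 3 followed at 39.2, and the other 4 were at 27.4 or below. The log2 fold change was 0.27 (SE 0.42, adjusted p = 0.999, edgeR) and turned to -0.29 without *Ythdf2*-/- replicate 1 and to 0.51 without wild-type replicate 3.

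*Emx2*, which acts on area size and on the hippocampus, lies on the plus strand of chromosome 19 from 59458690 to 59465357 with 3 exons. It had 253, 244 and 176 reads in wild type and 249, 176 and 232 in *Ythdf2*-/-, or 18.8 ± 2.78 and 17.6 ± 4.20 CPM (SD, n = 3). Its groups covered nearly the same range, and its log2 fold change of -0.09 (SE 0.24, adjusted p = 0.999, edgeR) was the smallest of the members tested, turning to 0.10 without *Ythdf2*-/- replicate 2 and to 0.02 without wild-type replicate 1.

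The start of *Emx2* faces that of its antisense partner *Emx2os*, on the minus strand from 59425104 to 59458635, across an interval that belongs to neither gene. It is printed because it shows that the exons of these neighbours do not meet in the RefSeq annotation. Whether the counting kept their reads apart was not tested, and its strand setting is not given in the sources used here. The interval follows (chr19:59458636-59458689, GRCm38.p6, plus strand, CG steps in capitals).
Emx2os-Emx2: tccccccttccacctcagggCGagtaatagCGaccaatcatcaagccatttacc
*Emx2os* had 55, 53 and 51 reads in wild type and 75, 62 and 75 in *Ythdf2*-/-, a log2 fold change of 0.34 (SE 0.25, adjusted p = 0.999, edgeR).

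*Emx1*, the paralogue of *Emx2* that is made in cortical progenitors and their excitatory neurons, lies on the plus strand of chromosome 6 from 85187931 to 85204463 with 3 exons. It was close to undetected in both genotypes, with 1 read in wild-type replicate 3 and 0 in the other 5 libraries. No fold is given, since 3 reads over the *Ythdf2*-/- libraries together, the most that a count of 0 allows, would be 0.0800 CPM. The homeoboxes of this pair are printed to show how much sequence is shared by a gene with 1 read and a gene with 1330.
Emx1: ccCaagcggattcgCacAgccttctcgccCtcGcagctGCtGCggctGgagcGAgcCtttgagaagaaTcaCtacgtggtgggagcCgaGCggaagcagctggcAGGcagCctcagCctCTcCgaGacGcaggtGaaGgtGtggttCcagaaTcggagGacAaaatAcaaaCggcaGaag
Emx2: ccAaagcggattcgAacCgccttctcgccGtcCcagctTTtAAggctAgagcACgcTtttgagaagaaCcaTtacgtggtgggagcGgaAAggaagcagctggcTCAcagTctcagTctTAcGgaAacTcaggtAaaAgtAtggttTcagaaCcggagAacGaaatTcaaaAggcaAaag
Capitals mark the bases that differ. The homeoboxes differed at 38 of 180 bases (78.9% identical), and the longest run that the transcripts had in common was 14 bases.

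Among the ventral genes, *Gsx2*, the factor of the lateral ganglionic eminence, lies on the plus strand of chromosome 5 from 75075601 to 75077893 with 2 exons. It had 13, 21 and 27 reads in wild type and 13, 13 and 2 in *Ythdf2*-/-, or 1.73 ± 0.688 and 0.744 ± 0.510 CPM (SD, n = 3). After scaling by depth, all 3 *Ythdf2*-/- libraries lay below all 3 wild-type libraries, by the narrowest margin for *Ythdf2*-/- replicate 1 (1.109 CPM) and wild-type replicate 1 (1.113 CPM), which had the same number of reads. *Gsx2* was the only member in which the groups did not overlap, 1 of 7 tested, where 10.2% of all genes tested did so (5.24% higher and 4.92% lower in *Ythdf2*-/-).

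The log2 fold change of *Gsx2* was -1.20 (SE 0.67, adjusted p = 0.999, edgeR), the largest in size among the members tested. Its exact permutation p over samples was 0.1 (2-sided), which is the smallest that 3 libraries against 3 can give. *Ythdf2*-/- replicate 3, with 2 reads, weighed most, and without it the log2 fold change was -0.73. With a term for the presence of Y-linked reads it was -1.79, with an unadjusted p of 0.0125 and an adjusted p of 0.319 (edgeR), while adjusted p over its alternatives on the counts were 0.295 or more. In the fit with that term, *Ythdf2*-/- replicate 3 was the only library of its genotype with Y-linked reads. Wild-type replicate 3 was the only wild-type library without them, so the fit leans on these libraries.

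*Gsx1*, expressed with *Gsx2* in the ganglionic eminences and known to drive progenitors out of the stem state, lies on the plus strand of chromosome 5 from 147188696 to 147190947 with 2 exons. It had 13, 9 and 12 reads in wild type and 20, 9 and 22 in *Ythdf2*-/-, or 0.966 ± 0.242 and 1.38 ± 0.619 CPM (SD, n = 3). *Ythdf2*-/- replicates 1 and 3 were high, replicate 2 was the lowest library of all, and the groups overlapped. The log2 fold change was 0.51 (SE 0.48, adjusted p = 0.999, edgeR), and it ran from 0.29 without *Ythdf2*-/- replicate 3 to 0.86 without *Ythdf2*-/- replicate 2, with 0.31 without wild-type replicate 2.

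The *Gsx* genes lay on opposite sides of 0. Their homeoboxes were identical at 155 of 180 bases (86.1%), with no common run over 23 bases in the transcripts. *Gsx1* made up 50%, 30% and 30.8% of the reads of the pair in wild type and 60.6%, 40.9% and 91.7% in *Ythdf2*-/-. These shares rest on 22 to 39 reads per library, and their 95% intervals (exact Clopper-Pearson, for counting error only) overlapped between genotypes except that of *Ythdf2*-/- replicate 3 (73.0% to 99.0%), which lay above all 3 wild-type intervals. In *Ythdf2*-/- replicate 1 the share lay above the intervals of wild-type replicates 2 and 3 (upper limits 49.4% and 47.6%), and in replicate 2 it lay within all 3 wild-type intervals.

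*Nkx2-1*, which specifies the medial ganglionic eminence and the hypothalamus, spans 56531935 to 56536908 of chromosome 12 (minus strand) with 3 exons. It had 4, 4 and 6 reads in wild type and 2, 3 and 6 in *Ythdf2*-/-, or 0.399 ± 0.131 and 0.292 ± 0.167 CPM (SD, n = 3). Like *Emx1* it was under the filter of the edgeR fit reported here, and with no filter neither gene was called (adjusted p = 0.998 for *Nkx2-1* and 0.996 for *Emx1*, edgeR). A difference was not detectable at this depth (exact permutation p = 0.4, 2-sided).

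The *Otx* genes were lower in *Ythdf2*-/- on average, with groups that overlapped. *Otx2*, needed for the formation of forebrain and midbrain and made in choroid plexus later on, spans 48656781 to 48667644 of chromosome 14 (minus strand) with 5 exons. It had 429, 556 and 598 reads in wild type and 314, 600 and 274 in *Ythdf2*-/-, or 44.6 ± 9.21 and 31.1 ± 11.8 CPM (SD, n = 3). *Ythdf2*-/- replicate 2 lay inside the wild-type range and the other 2 libraries of that genotype lay below it.

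The log2 fold change of *Otx2* was -0.52 (SE 0.30, adjusted p = 0.999, edgeR). It was -0.32 without *Ythdf2*-/- replicate 3, -0.35 without wild-type replicate 3 and -0.41 without *Ythdf2*-/- replicate 1. Without *Ythdf2*-/- replicate 2 it was -0.86, with an unadjusted p of 0.0128 and an adjusted p of 0.9999, and it was -0.73 once Y-linked reads entered the model, with an unadjusted p of 0.0211 and an adjusted p of 0.365. As for *Gsx2*, the model with Y-linked reads leans on *Ythdf2*-/- replicate 3 and wild-type replicate 3. The smallest adjusted p over the alternatives was 0.0897, from limma-voom with sample quality weights, a fit that gave wild-type replicate 3 a weight of 0.0957.

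*Otx1*, expressed in cortical progenitors and deep-layer neurons, spans 21994764 to 22001651 of chromosome 11 (minus strand) with 5 exons. It had 102, 132 and 153 reads in wild type and 72, 127 and 94 in *Ythdf2*-/-, or 10.9 ± 2.74 and 7.70 ± 1.64 CPM (SD, n = 3). The order of the libraries resembled that of *Otx2*, with *Ythdf2*-/- replicate 2 again inside the wild-type range. The log2 fold change was -0.50 (SE 0.28, adjusted p = 0.999, edgeR), and it stayed between -0.66 and -0.29 when each library was left out. The homeoboxes of *Otx1* and *Otx2* were identical at 144 of 180 bases, and the longest common run of the transcripts was 18 bases.

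Over the 7 members tested, edgeR's quasi-likelihood test called 0 at an adjusted p under 0.05, where it called 0 (0.00%) of the 13112 genes. None of the 7 had an unadjusted p under 0.05, against 3.63% of all genes tested (1.81% higher and 1.82% lower in *Ythdf2*-/-). DESeq2 (0.237% of all genes called) and limma-voom called 0 members as well, and limma-voom with sample quality weights gave 4 of them, *Gsx1*, *Lhx2*, *Otx1* and *Otx2*, an unadjusted p under 0.05 while calling 0, in a fit that gave such a p to 28.1% of all genes tested. The exact permutation p of the 6 other tested members ran from 0.2 to 0.9. The standard errors of all 7 ran from 0.24 to 0.67 on the log2 scale.

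**Figure D2:**
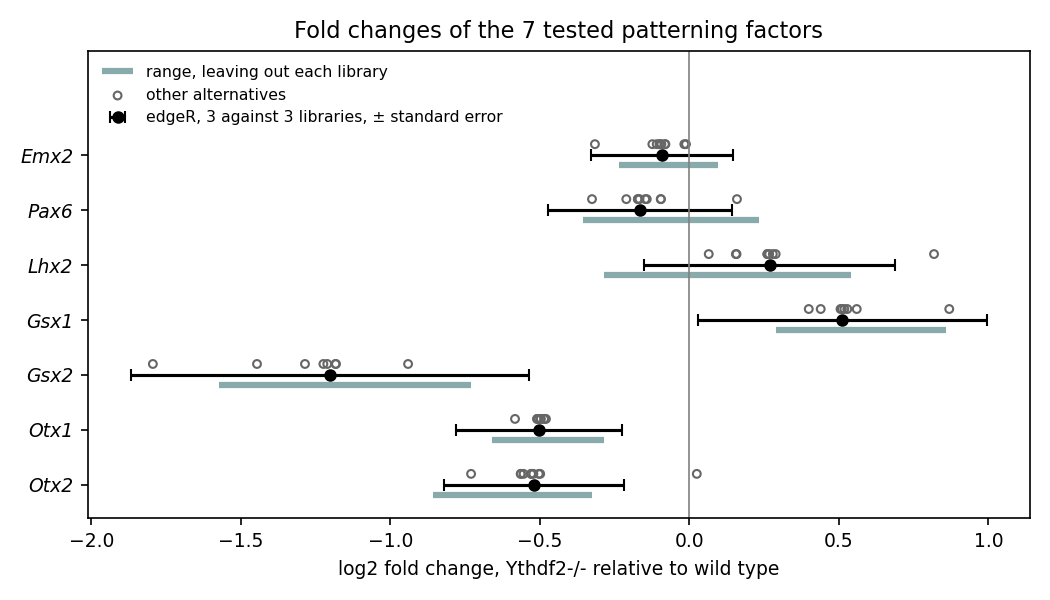
Log2 fold change (*Ythdf2*-/- relative to wild type) of the 7 tested factors by edgeR with standard errors (black), the range when each library is left out (grey bars) and the values under the other alternatives (open circles). *Gsx2*, *Otx1* and *Otx2* stay below 0 and *Gsx1* above 0 when any library is left out, while *Emx2*, *Pax6* and *Lhx2* cross 0.

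The dorsal and ventral classes were then compared by library. The 4 dorsal genes took 1094, 1209 and 1617 reads in wild type and 1597, 1355 and 1141 in *Ythdf2*-/-, and the 3 ventral genes took 30, 34 and 45 and then 35, 25 and 30. The dorsal reads were thus 35.6 to 36.5 times the ventral reads in wild type and 38.0 to 54.2 times in *Ythdf2*-/-. Per length, the ratio of summed RPKM was 22.3 ± 0.932 and 29.1 ± 3.45 (SD, n = 3). In every library the balance of these members lay far on the dorsal side, although *Emx1* added almost nothing and *Pax6* alone gave 40.6% to 65.1% of the dorsal reads. This holds for the members only. The lists of other regional genes described below went the other way. Their ventral genes, led by *Olig1* and *Olig2*, summed to 1022 to 1895 CPM per library and their dorsal genes to 156 to 234 CPM.

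Averaged as log2 CPM over the genes of a class, the dorsal level was 3.15 ± 0.28 in wild type and 3.09 ± 0.25 in *Ythdf2*-/- (SD, n = 3), a difference well inside the spread. The ventral level was 0.05 ± 0.32 and -0.35 ± 0.20 (SD, n = 3). The index, dorsal minus ventral within a library, was 3.12, 3.13 and 3.06 in wild type and 3.49, 3.39 and 3.41 in *Ythdf2*-/-, so the genotypes did not overlap and differed by 0.33. No test is given for a score over chosen members, and the index calls for care on 2 counts. Its SD within a genotype, 0.04 and 0.05, was far under the 0.230 to 0.246 that counting error alone gives for a single library, so the tightness of the groups is not a measure of precision.

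The second is that the difference in the index lay in *Gsx2*. Without that gene, an alternative chosen after seeing the data, the index was 3.34, 3.62 and 3.55 in wild type and 3.72, 3.72 and 2.82 in *Ythdf2*-/-, the groups overlapped and the mean difference turned to -0.085. Without *Gsx1* the difference was 0.72. The *Gsx1* and *Gsx2* values behind the index rest on 22 to 39 reads per library.

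**Figure D3:**
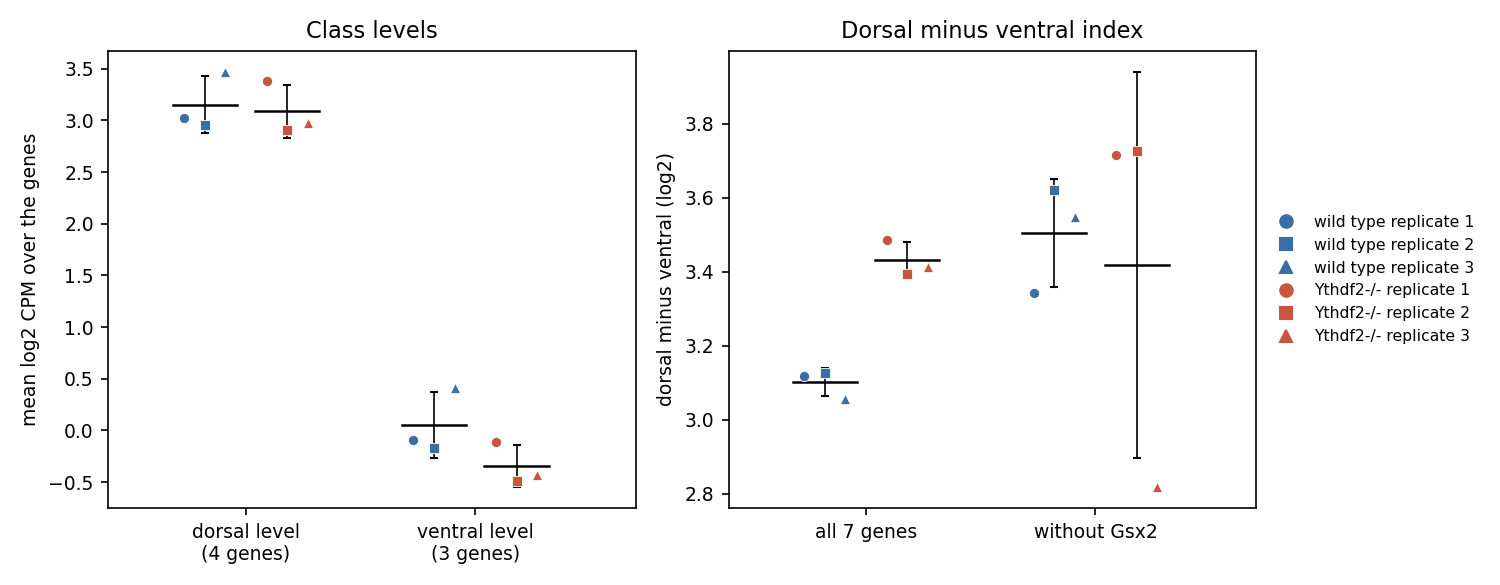
Mean log2 CPM of the dorsal and ventral genes (left) and the dorsal minus ventral index (right) in each library, with all 7 genes and without *Gsx2*, where bars show the mean and SD of 3 libraries. The index separates the genotypes (3.06 to 3.13 against 3.39 to 3.49) with all genes, and no longer does so without *Gsx2*.

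Across the 6 libraries, the dorsal genes did not rise and fall together, and neither did the ventral genes. The pair *Otx1* and *Otx2* had the highest correlation of log2 CPM (Pearson r = 0.87 over 6 libraries), followed by *Gsx2* and *Otx2* (r = 0.84). Among dorsal genes, r was -0.62 for *Emx2* and *Pax6*, 0.43 for *Emx2* and *Lhx2* and 0.28 for *Pax6* and *Lhx2*, and between *Gsx1* and *Gsx2* it was -0.51. Across the classes, *Pax6*, *Gsx2*, *Otx1* and *Otx2* all correlated positively with each other (r of 0.60 to 0.87). So did *Emx2*, *Lhx2* and *Gsx1* (0.43 to 0.64), and both groupings were named after the values were seen. The lowest r was -0.77, for *Gsx1* and *Otx2*. These values describe 6 points that share genotype and wild-type replicate 3. By the same measure, the nearest of 9825 or 9826 genes of at least 10 CPM were *Nacad*, *Dcaf11* and *Zfyve27* for *Pax6* (r of 0.995 to 0.997), *Mpc2*, *Rrn3* and *Noa1* for *Emx2* (0.963 to 0.969) and *Fbxo6*, *Csrp1* and *Mterf3* for *Lhx2* (0.949 to 0.958). For the other members they were *Rpain*, *Adck5* and *Mapre1* for *Otx2* (0.983 to 0.992), *Pcdhga6*, *Skap2* and *Aebp1* for *Otx1* (0.986 to 0.992), *Agap3*, *Spcs2* and *Ahnak* for *Gsx2* (0.972 to 0.980) and *Trappc8*, *Tbcel* and *Manbal* for *Gsx1* (0.943 to 0.978). With 6 libraries and this many candidate genes, a high r is no sign of a link.

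To place the members among other regional genes, 7 lists of 107 genes were examined, of which 47 passed the filter. EdgeR called 0 of the 47, DESeq2 called 1 (*Sp8*, where it called 0.237% of all genes), limma-voom with sample quality weights called 2 (*Sall1* and *En2*, where it called 1.15% of all genes), and 7 had an unadjusted p under 0.05 (14.9%, where all genes tested gave 3.63%). In 9 of the 47 (19.1%, against 10.2% of all genes tested) the groups did not overlap, 5 higher and 4 lower in *Ythdf2*-/-. The median log2 fold change was 0.04, beside -0.01 for all genes tested. Without wild-type replicate 3, 10 of the 47 had an unadjusted p under 0.05 (21.3%, against 16.6% of all genes) and in 16 the groups did not overlap (34.0% against 38.9%), so the list no longer exceeded the background in the count of separate groups.

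In the list of other dorsal telencephalon genes, 7 of 17 were tested, 0 were called and the median was 0.14 (0.54 without wild-type replicate 3, where the median of all genes was 0.01). *Cux1* and *Cux2*, upper-layer factors, had log2 fold changes of 0.14 (SE 0.16) and -0.15 (SE 0.51), which became 0.28 and 0.66 without that library. *Tbr1* and *Eomes*, factors of cortical neurogenesis named after their values were seen, had 1 to 4 and 3 to 14 reads per library.

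In the list of other ventral telencephalon genes, 9 of 18 were tested, 0 were called and the median was -0.05 (-0.04 without wild-type replicate 3). *Olig1* and *Olig2*, made in ventral progenitors and the oligodendrocyte lineage, were the most abundant, at 780 ± 203 and 429 ± 91.8 CPM in wild type and 1086 ± 166 and 467 ± 48.7 CPM in *Ythdf2*-/- (SD, n = 3). Their log2 fold changes were 0.48 (SE 0.25) and 0.12 (SE 0.21), or 0.28 and -0.05 without wild-type replicate 3. These stood far above the *Gsx* genes and *Nkx2-1* in every library. Of the 9 list genes under the filter, 5 had 0 reads in all 6 libraries.

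*Dlx1* and *Nkx2-2* were the ventral genes with an unadjusted p under 0.05, and these and *Dlx2* were named after their values were seen. *Dlx1*, a target of Gsx2 in the ganglionic eminences, had 11, 16 and 23 reads in wild type and 7, 7 and 9 in *Ythdf2*-/- (log2 fold change -1.20, SE 0.44, adjusted p = 0.999, edgeR). Its neighbour *Dlx2* had 24, 16 and 41 reads and then 17, 12 and 7 (-1.27, SE 0.56). *Nkx2-2*, a ventral progenitor and oligodendrocyte factor, had 100, 106 and 189 and then 38, 87 and 76 (-1.10, SE 0.42). All of these were highest in wild-type replicate 3, the library that also held the most *Gsx2*, and without it the log2 fold changes of *Dlx1*, *Dlx2* and *Nkx2-2* were -0.82, -0.75 and -0.66.

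In the broad forebrain list, 14 of 15 genes were tested, 0 were called by edgeR and the median was 0.02 (0.12 without wild-type replicate 3). *Tcf4*, *Sall3* and *Sall1* were the most abundant, with log2 fold changes of 0.05 (SE 0.30), 0.24 (SE 0.27) and 0.40 (SE 0.16), or 0.44, 0.01 and 0.53 without that library. *Sall1* had groups that did not overlap and an adjusted p of 0.999 with edgeR, at the lowest 0.0449 over the alternatives, with sample quality weights. *Sp8*, a zinc finger factor of the rostral forebrain that was named after its values were seen, had 76, 52 and 46 reads in wild type and 21, 12 and 6 in *Ythdf2*-/-, with all wild-type libraries above the others. Its log2 fold change was -2.21 (SE 0.52, adjusted p = 0.999, edgeR), it lay between -2.80 and -1.87 when each library was left out, and its adjusted p over the alternatives was lowest with DESeq2, at 0.0353.

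Outside the telencephalon, 2 of 17 cortical hem and choroid plexus genes, 8 of 16 diencephalon and hypothalamus genes, 2 of 8 eye field genes and 5 of 16 midbrain and hindbrain genes were tested and 0 were called by edgeR, with medians of 0.05, -0.03, 0.02 and -0.03 (0.27, 0.03, 0.17 and 0.14 without wild-type replicate 3). *Foxj1*, a ciliogenesis factor, and *Wnt2b* had log2 fold changes of -0.06 (SE 0.13) and 0.16 (SE 0.46), the latter 0.61 without that library. *Folr1* was under the filter, with 45 of its reads in wild-type replicate 3. *Tcf7l2*, *Irx2* and *Irx1* had -0.53 (SE 0.52), -0.17 (SE 0.43) and 0.48 (SE 0.45), *Mitf* and *Crx* had -0.17 (SE 0.25) and 0.20 (SE 0.39), and *Vax2* was under the filter. Without wild-type replicate 3, which held 84.3 CPM of *Tcf7l2* against at most 31.6 elsewhere, *Tcf7l2* turned to 0.36, and *Mitf* and *Egr2* turned to 0.02 and 0.47. *Egr2* and *En2* had -0.03 (SE 0.48) and -1.32 (SE 0.37). *En2*, a midbrain and hindbrain factor, had 204, 190 and 194 reads in wild type and 70, 137 and 47 in *Ythdf2*-/- (adjusted p = 0.999, edgeR, and 0.0463 at the lowest over the alternatives, with sample quality weights). The cultures thus held transcripts of a gene that marks regions behind the forebrain.

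**Figure D4:**
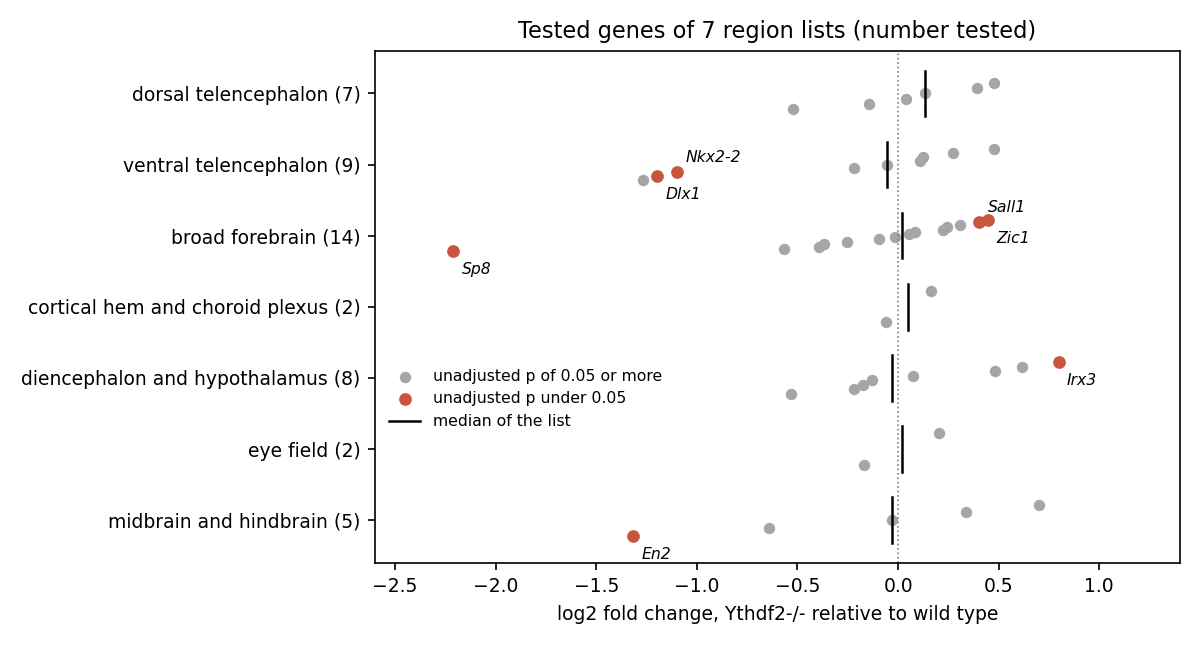
Log2 fold change (*Ythdf2*-/- relative to wild type, edgeR) of the 47 tested genes in 7 lists of regional genes, with the number tested in brackets and the median of each list as a line. The medians lie between -0.05 and 0.14, and the 7 genes with an unadjusted p under 0.05 are named, 4 of them below and 3 above 0.

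All 19 homeodomain cofactor genes were tested, 0 were called and the median was 0.01 (0.02 without wild-type replicate 3). The corepressor *Tle4* and *Ssbp3*, a component of LIM-homeodomain complexes, had log2 fold changes of -0.56 (SE 0.43) and -0.18 (SE 0.25), or -0.03 and 0.15 without that library. Of 16 patterning signal genes 10 were tested, 0 were called and the median was 0.08 (0.20 without that library). The Hedgehog receptor *Ptch1* and the ligands *Wnt7b* and *Wnt5a* had 0.21 (SE 0.29), 0.52 (SE 0.25) and 0.18 (SE 0.41), or 0.46, 0.44 and -0.16 without it. Of 7 antisense neighbours of patterning genes 2 were tested, *Six3os1* at -0.12 (SE 0.35) and *Emx2os*, with 0 called and a median of 0.11 (-0.03 without wild-type replicate 3). *Otx2os1* was under the filter, with 3, 4 and 9 reads in wild type and 0, 3 and 0 in *Ythdf2*-/-.

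Marker lists were examined for the cell types that the cultures could hold. The progenitor markers summed to between 6012 CPM (replicate 3) and 9101 CPM in wild type and to 8497 to 9481 CPM in *Ythdf2*-/-. The fold changes that follow compare genotypes and do not check the NSPC label. All 11 progenitor markers were tested, 0 were called by edgeR, the median was 0.02 (0.23 without wild-type replicate 3), and the most abundant, *Slc1a3*, *Vim* and *Fabp7*, had log2 fold changes of 0.34 (SE 0.39), -0.01 (SE 0.36) and 0.14 (SE 0.45), or 0.23, -0.22 and -0.22 without that library. All 10 neuronal markers were tested with 0 called and a median of -0.59 (0.15 without wild-type replicate 3), led by *Map2*, *Gap43* and *Dcx* at -0.02 (SE 0.20), -0.16 (SE 0.47) and -3.51 (SE 1.39), or 0.16, -0.52 and -0.23 without it. All 7 astrocyte markers gave 0 calls and a median of -0.04 (0.17 without wild-type replicate 3), led by *Gja1*, *Gfap* and *Aldoc* at -0.04 (SE 0.77), -4.22 (SE 1.30) and -0.66 (SE 0.49), or 0.88, -2.85 and -0.23 without it. Of 8 oligodendrocyte lineage markers 6 were tested with 0 called and a median of -2.38 (-0.30 without wild-type replicate 3), with *Cnp* and *Cspg4* at -0.55 (SE 0.81) and 0.44 (SE 0.14), or 0.74 and 0.41 without it.

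Markers of other cell types were low. The 9 microglia and 7 endothelial markers summed to 0.805 to 1.54 and to 1.01 to 3.59 CPM, with 1 gene of each list tested (*Cx3cr1* at -0.48, SE 0.61, and *Kdr* at -0.32, SE 0.42, or -0.33 and -0.54 without wild-type replicate 3), 0 called, and *P2ry12*, *Csf1r*, *Tek* and *Flt1* under the filter. The 8 mesenchymal markers summed to 11.6 to 41.6 CPM, with *Foxc1* at 0.45 (SE 0.32), *Pdgfrb* at -2.50 (0.91 without wild-type replicate 3, which held 347 of its reads), *Col1a1* under the filter, 0 called and a median of -1.02 (0.60 without wild-type replicate 3).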

How the data were processed

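The 9 members and all gene lists were chosen with earlier results of these data known. Per the labels, fragmented mRNA went into a strand-specific library kit, and the build was mm10. The submitters' processing notes name Bowtie2 2.2.9, RSEM 1.2.15 and featureCounts, and the study's methods name TopHat and Cuffnorm. The strand setting of the counting is not given in the sources used here. The authors deposited raw read counts per gene, not normalized, and separate tables with expected counts, TPM, FPKM and gene length. The deposited FPKM values were used in 1 alternative (limma on log2(FPKM + 1), a scale that understates the change of low genes), the expected counts were compared with the raw counts, and the deposited TPM values were not used.

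Genotype and replicate came from the sample titles. Raw counts passing filterByExpr (13112 of 24525 genes) were fitted in edgeR 4.0.16 (robust glmQLFit and glmQLFTest after TMM scaling, genotype as the only term, Benjamini-Hochberg over all genes tested, call at an adjusted p under 0.05) in R 4.3.3. CPM used TMM factors. RPKM was CPM per kilobase of the mean deposited length. Class levels are means of log2 CPM with a prior count of 2. Alternatives used DESeq2 1.42.0, limma 3.58.1 and edgeR with other filters, scalings and terms. Tables and exact tests were made in Python 3.11.15 (scipy 1.17.1, pandas 2.3.3, numpy 2.4.6), and the edgeR step was tested on simulated data.

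Named genes were all members, *Ythdf2*, the 3 genes of highest mean CPM in each list, up to 5 list genes with an adjusted p under 0.05 (none), and the 3 genes most like each member of at least 1 CPM. Others are marked where named. Some list genes and member sequences are not reported here. List values without wild-type replicate 3 were added after seeing the data. Lists covered dorsal and ventral telencephalon, broad forebrain, cortical hem and choroid plexus, diencephalon and hypothalamus, eye field, midbrain and hindbrain, homeodomain cofactors, patterning signals, antisense neighbours, and progenitor, neuronal, astrocyte, oligodendrocyte lineage, microglia, endothelial and mesenchymal markers. Positions and sequences came from RefSeq's annotation of GRCm38.p6. The check between replicates found no duplicated library. Its chi-square per degree of freedom was 4.57 between wild-type replicates 1 and 2, the most alike pair. It was 22.5 to 56.5 between *Ythdf2*-/- libraries and 136 to 140 between wild-type replicate 3 and the others of its genotype.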

Additional observations from a re-analysis of the deposited data

How the results depend on the processing

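Counts of called genes moved while those of called members stayed at 0. The share of genes called was 0.00% with edgeR, 0.237% with DESeq2 and 1.15% with sample quality weights. With so few members, 0 calls among them therefore show little. *Gsx1* and *Gsx2* were not among the 4 members fitted on the deposited FPKM. They were also not among the 5 fitted with at least 10 reads in every library. EdgeR called 0 genes, and the count was 31 with DESeq2, 151 with limma-voom and sample quality weights, 13 with a term for Y-linked reads, 2 from limma on the deposited FPKM, and 1 each with RLE scaling, with no filter and with at least 10 reads in every library. Leaving out each library gave 0 to 2 genes. Members called were 0 under all 16 alternatives, and list members called were 0 when each library was left out and 2 with DESeq2 (*Sp8* and *Prom1*, the latter named after its values were seen). Of 106 refits of the 7 tested members, 100 kept their direction, and 6 reversed, in *Emx2* (0.02 without wild-type replicate 1 and 0.10 without *Ythdf2*-/- replicate 2), *Pax6* (0.16 with quality weights and 0.23 without wild-type replicate 3), *Lhx2* (-0.29 without *Ythdf2*-/- replicate 1) and *Otx2* (0.025 on the deposited FPKM). Leaving out each library gave -0.24 to 0.10 for *Emx2*, -0.36 to 0.23 for *Pax6* and -0.29 to 0.54 for *Lhx2*. The cause was not tested, except that the FPKM table held at most 1 expected count of *Otx2* per library. The dorsal level differed by -0.21 to 0.09 when each library was left out, the ventral level by -0.51 to -0.21 and the index by 0.30 to 0.35. The ventral difference was 0.018 without *Gsx2* and -0.78 without *Gsx1*. The index difference was 0.25 with a prior count of 5, 0.41 without *Emx1* and *Nkx2-1*, -0.085 without *Gsx2*, 0.72 without *Gsx1* and 0.25 without *Lhx2*, the settings that leave out genes being chosen after seeing the data. With the replicate number as a block, 0 genes and 0 members were called and *Gsx2* had a log2 fold change of -1.29. Same-numbered libraries did not deviate together (correlations of -0.25, -0.24 and -0.39), and nothing in the labels pairs them. Depth limits *Emx1*, *Nkx2-1*, *Gsx1* and *Gsx2*, with at most 27 reads in any library.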

Other observations

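The separate gene tables with expected counts rest on far fewer reads than the raw counts, between 1.97% and 2.40% of them per library, and they give another picture of the patterning factors. *Pax6* held 595 of the expected counts over 6 libraries against 4300 raw reads (13.8%), with 85, 97 and 139 in wild type and 99, 76 and 99 in *Ythdf2*-/-. *Otx2* held 4 against 2771 raw reads, *Lhx2* 1 against 2382, *Otx1* 0.99 against 680 and *Emx2* 8 against 1330, while *Emx1*, *Gsx1* and *Gsx2* were listed at 0 in all 6 libraries. The median tested gene held 0.196% of its raw reads, so *Pax6* stood above and *Lhx2* below it.

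*Emx2os* held 266 expected counts against 371 raw reads (71.7%) and *Nkx2-1* held 21.2 against 25 (84.7%). In wild-type replicate 3 the expected count of *Nkx2-1* was 11.8, above its 6 raw reads. *Elp4*, which overlaps *Pax6* on the opposite strand, held 233 against 4619. These differences between the tables were seen with all genotypes together, and their cause was not tested.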
